A study of Mus musculus with 15 samples.

Results

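The data describe how the carotid artery of Has3-deficient mice differed between ligated and non-ligated vessels 5 days after surgery. Of the 15 arrays of the series, 7 belong to this comparison: 3 of ligated and 4 of non-ligated Has3-deficient arteries, taken by the genotype and artery state in their labels. All mice were female, of strain C57Bl/6J and 21 to 22 weeks old, and the left common carotid artery had been tied. The other 8 arrays, 4 of ligated and 4 of non-ligated wildtype arteries of the same sex, strain, age and day, enter the fit and are given beside the Has3-deficient values. The labels number the Has3-deficient ligated arrays 3, 5 and 6 and the non-ligated ones 1 to 4, and these numbers name the arrays below. They do not say how Has3 was inactivated, whether in all cells, whether a non-ligated artery is the right carotid of an operated mouse, or whether each array is a separate mouse. The p-values therefore measure the spread between these samples, which may be technical.

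Has3 is a hyaluronan synthase, a membrane enzyme that extrudes hyaluronan, a long sugar polymer of the matrix around vascular cells. Tying off the carotid stops blood flow in the vessel stump without opening its lumen. Leukocytes then enter the wall, smooth muscle cells lose contractile proteins, divide and migrate, and a neointima builds up inside the artery. Hyaluronan and its receptor Cd44 take part in the adhesion and movement of both kinds of cell. Day 5 falls in the early, inflammatory and proliferative stage of this process.

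The values are log2 signals from which each probe set's median across the 15 arrays had been subtracted, so a difference of 1 is a 2-fold difference. Levels were lost in this step: genes cannot be ranked by abundance, and whether a marker is present or absent cannot be read. Because 8 of the 15 arrays are non-ligated, a gene that is higher in every ligated array has a non-ligated array as its median, and that array reads 0. Changes below are the ligated minus the non-ligated mean with the standard error of the limma fit, for 22180 genes. The threshold for passing was an adjusted p (Benjamini-Hochberg, over all genes) below 0.05, and "rose" and "fell" are used of such genes alone. Values by array are given in the order non-ligated 1 to 4, then ligated 3, 5 and 6.

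The labelled tissue could be checked only through differences between arrays. The mean over 20 genes of contractile smooth muscle was 0.48, 0.43, -0.01 and 0.31 in the non-ligated arrays and -0.45, -0.30 and -0.30 in the ligated ones. Non-ligated array 3 was the lowest of its group for these genes and by far the highest for 19 genes of neurons and chromaffin cells, the catecholamine-storing cells that occur near the carotid. That neuronal mean was 0.88, -0.19, 3.88 and 1.39 in the non-ligated arrays and -0.17, 0.25 and 0.28 in the ligated ones. A 7-gene Schwann cell list was also highest in array 3, at 1.22 against 0.66 or less in the other non-ligated arrays. Non-ligated array 4 had the highest means for fat (1.66) and for the respiratory chain (1.07). In array 3, 612 genes lay more than 2-fold from the mean of the rest of its group, 594 of them above it, against 124, 292 and 224 genes in arrays 1, 2 and 4. The ligated arrays had 29, 6 and 4 such genes. Where leaving out non-ligated array 3 changed the call of a gene named below, or moved a printed count of a gene list by more than 1.5 times, the value without it is given too.

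**Figure D1:**
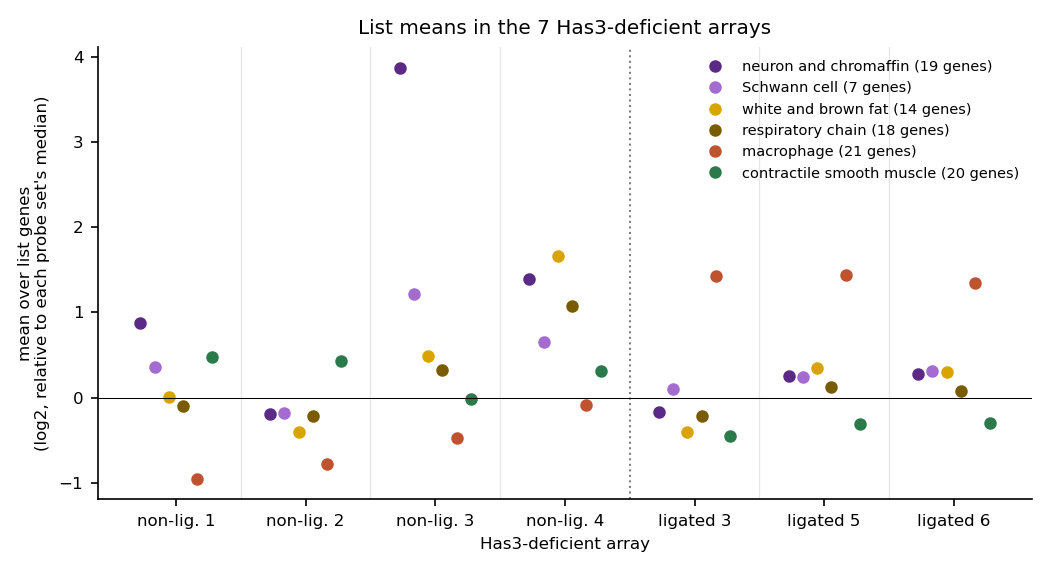
Mean log2 value of 6 gene lists (y axis, relative to each probe set's median over 15 arrays) in each of the 7 Has3-deficient arrays (x axis; non-lig., non-ligated), 1 point per list and array. Non-ligated array 3 stands at 3.88 for neuron and chromaffin genes, while macrophage genes are at 1.35 to 1.45 in the ligated arrays and at -0.95 to -0.09 in the non-ligated ones.

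The targeted gene did not separate the groups. The Has3 probe set read 0.21, 0.41, -0.07 and -0.08 in the non-ligated arrays and -0.23, -0.01 and 0.10 in the ligated ones. Its change was -0.16 ± 0.16 (adjusted p = 0.556), and the arrays of both groups overlapped. In wildtype it read 0.00, -0.08, -0.02 and 0.22 in non-ligated arrays 1 to 4 and -0.08, 0.13, 0.58 and 0.00 in ligated arrays 1 to 4. The arrays of the 2 genotypes thus overlapped too. The position of the probes relative to the deleted part of Has3 is not known here, so this probe set checks neither the genotype nor the absence of Has3 message.

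Of the other hyaluronan synthases, Has2, the main enzyme of vascular smooth muscle, rose and Has1 did not pass. Has2 read -0.88, -0.93, -0.26 and -0.13 in the non-ligated arrays and 1.03, 0.61 and 0.99 in the ligated ones. All ligated arrays lay above all non-ligated ones, and the change was 1.43 ± 0.20 (2.69-fold, adjusted p = 0.000138). Has1 read -0.19, 0.08, -0.33 and -0.13 in the non-ligated arrays and 0.24, 0.59 and 0.28 in the ligated ones. These arrays did not overlap either, as for 26.3% of all genes, but the change of 0.51 ± 0.23 had an adjusted p = 0.143. Neither change differed from wildtype past the threshold: the difference of the responses was 0.18 ± 0.27 for Has2 and -0.29 ± 0.31 for Has1, with adjusted p of 0.891 and 0.835 in the limma fit.

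Among 30 measured genes that make, bind, sense or degrade hyaluronan, 8 rose and 0 fell, against 10.2% higher and 8.08% lower over all genes. The median change was 0.23, against -0.03 over all genes. Of 8 receptors 4 were higher. Cd44, the main cell surface receptor for hyaluronan, read -0.53, -0.68, -0.35 and 0.00 in the non-ligated arrays and 2.52, 2.12 and 2.08 in the ligated ones. The gap between the groups was far wider than the spread within either, and Cd44 rose by 2.63 ± 0.14 (6.21-fold, adjusted p = 2.5e-08). Tlr2, a pattern receptor that also responds to hyaluronan fragments, rose by 1.59 ± 0.09. Hmmr, a hyaluronan-binding protein of the mitotic spindle, rose by 1.43 ± 0.17, and Stab1, a scavenger receptor, by 0.65 ± 0.16. The other 4 receptors did not pass, among them Tlr4, which responds to hyaluronan fragments like Tlr2 (0.28 ± 0.10).

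Of 10 binding proteins 2 rose. Tnfaip6, which transfers heavy chains of inter-alpha-inhibitor onto hyaluronan and so cross-links it, read -0.74, -0.96, -0.26 and 0.00 in the non-ligated arrays and 2.56, 2.37 and 2.61 in the ligated ones. It rose by 3.00 ± 0.23 (8.02-fold), with no overlap between the groups. Vcan, the large proteoglycan versican, rose by 0.86 ± 0.15. Ugdh, which makes the UDP-glucuronic acid used by the synthases, rose by 0.61 ± 0.11 and was the 1 of 4 precursor enzymes to pass. No member passed among the 5 genes of hyaluronan degradation, whose changes ran from -0.06 to 0.33, the highest being that of Cemip, a hyaluronan depolymerase of fibroblasts. Without non-ligated array 4 all 4 precursor enzymes passed as higher, and without ligated array 3 Stab1 did not pass (0.61).

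Across all genes 4055 passed (18.3%), 2262 higher (10.2%) and 1793 lower (8.08%). The rises were larger than the falls: 749 genes were up and 106 down by more than 2-fold, and 248 and 2 by more than 4-fold. The RNA came from whole artery pieces cleaned of wound tissue, so fewer cells of a type and less RNA per cell cannot be told apart, and neither can their opposites. The number of genes called lower depended on ligated array 3: without it 996 genes fell and 1789 rose. In a fit to the 7 Has3-deficient arrays alone 1056 genes fell, and 31 of the 249 named genes that passed did not, among them Nos3, Pdgfb, C7, Stab1, Atp6v0e2 and Pkhd1l1, with the same sizes of change.

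The 12 largest rises were all genes of inflammation or of myeloid cells. Il1b, the cytokine interleukin 1 beta, read -3.48, -3.36, -0.99 and 0.00 in the non-ligated arrays and 3.72, 3.45 and 3.20 in the ligated ones. Its non-ligated arrays spread widely, yet all ligated arrays lay above them, and it rose by 5.41 ± 0.70 (42.7-fold, adjusted p = 7.41e-05). Stfa2l1, of the stefin A family of cysteine protease inhibitors of neutrophils, read -2.33, -2.29, -0.79 and 0.00 in the non-ligated arrays and 4.31, 3.70 and 3.45 in the ligated ones. Saa3, an acute-phase apolipoprotein made locally in inflamed tissue, read -1.34, -1.38, -0.58 and 0.00 in the non-ligated arrays and 4.30, 4.50 and 3.87 in the ligated ones. As for Il1b, non-ligated arrays 1 and 2 were lowest, array 3 lay between, array 4 read 0, and the ligated arrays lay far above. Stfa2l1 rose by 5.17 ± 0.54 and Saa3 by 5.05 ± 0.30 (33.1-fold, adjusted p = 5.07e-08).

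The next largest rises were those of Ccl3 (4.89 ± 0.49), a chemokine of monocytes and neutrophils, and of the C-type lectins Clec4d (4.87 ± 0.36) and Clec4e (4.79 ± 0.34), which sense mycobacterial glycolipid and dead cells. Acod1, which makes itaconate in activated macrophages, rose by 4.76 ± 0.48, and the neutrophil chemokine Cxcl3 by 4.58 ± 0.31. Mmp12, macrophage elastase, rose by 4.44 ± 0.58, Slfn4, a myeloid gene of the interferon response, by 4.42 ± 0.37, Il1f9, an interleukin 36 ligand, by 4.34 ± 0.26 and Clec7a, the receptor for fungal beta-glucan, by 4.24 ± 0.24. These 12 were taken from genes whose groups did not overlap, and each passed in all 17 alternatives run. Among the 749 genes that rose more than 2-fold, non-ligated array 4 was the highest of its group for 393 and array 1 for 78, while ligated array 3 was the highest of its group for 471 and array 6 the lowest for 482.

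**Figure D2:**
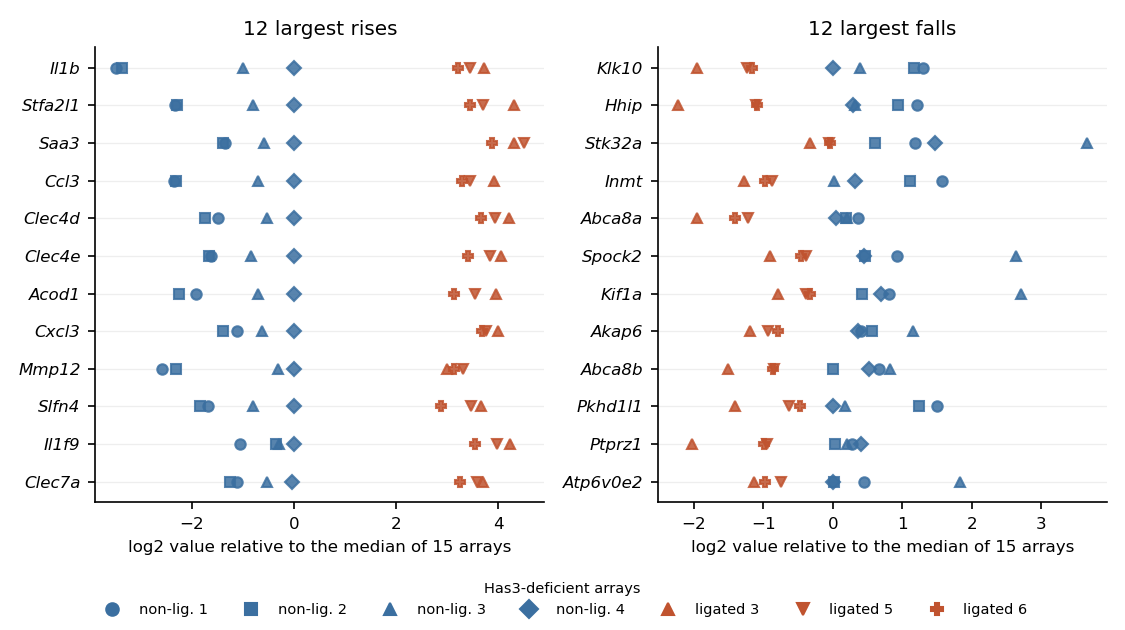
Log2 value (x axis, relative to the median of 15 arrays) of the 12 largest passing rises and the 12 largest passing falls among genes whose groups did not overlap (y axis), 1 symbol per Has3-deficient array. For Il1b the ligated arrays are at 3.20 to 3.72 and the non-ligated ones at -3.48 to 0.00, and for Stk32a, Spock2 and Kif1a the highest point is non-ligated array 3.

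The 12 largest falls, likewise taken from genes whose groups did not overlap, included an endothelial gene of flow, a hedgehog antagonist and 4 genes in which non-ligated array 3 lay far above the other non-ligated arrays. Klk10, a kallikrein that endothelium makes under steady laminar flow, read 1.29, 1.17, 0.39 and 0.00 in the non-ligated arrays and -1.96, -1.23 and -1.16 in the ligated ones. It fell by 2.16 on the log2 scale (4.48-fold, standard error 0.36, adjusted p = 0.000655). Hhip, a membrane protein that binds hedgehog ligands, read 1.22, 0.94, 0.33 and 0.29 in the non-ligated arrays and -2.22, -1.10 and -1.08 in the ligated ones and changed by -2.16 ± 0.36. In both genes ligated array 3 was the lowest. Inmt, an amine methyltransferase (-1.80 ± 0.41), Abca8a (-1.73 ± 0.19) and Abca8b (-1.57 ± 0.23), lipid transporters, Akap6, an anchor of protein kinase A on the nuclear envelope and sarcoplasmic reticulum (-1.59 ± 0.22), Pkhd1l1 (-1.56 ± 0.39) and Ptprz1, a receptor tyrosine phosphatase (-1.55 ± 0.31), were among the 12 too.

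The other 4 of the 12 were those far higher in non-ligated array 3. Stk32a, a serine-threonine kinase, read 1.19, 0.61, 3.65 and 1.47 in the non-ligated arrays and -0.32, -0.06 and -0.04 in the ligated ones. Kif1a, the motor that carries synaptic vesicle precursors along axons, read 0.81, 0.42, 2.71 and 0.70 in the non-ligated arrays and -0.79, -0.38 and -0.32 in the ligated ones, and Spock2, a proteoglycan abundant in brain, read 0.92, 0.47, 2.63 and 0.45 in the non-ligated arrays and -0.91, -0.38 and -0.46 in the ligated ones. Array 3 lay far above the next array in each of these genes, and the other 3 non-ligated arrays still lay above all ligated ones. Without array 3 the changes shrank from -1.87 to -1.23 for Stk32a, from -1.66 to -1.14 for Kif1a, from -1.70 to -1.20 for Spock2 and from -1.52 to -1.10 for Atp6v0e2, a subunit of the vacuolar proton pump, and all 4 still passed. Stk32a did not pass without ligated array 3 (-1.78), 5 (-1.91) or 6 (-1.92), and without ligated array 3 neither did Spock2 (-1.54), Kif1a (-1.51) or Pkhd1l1 (-1.28).

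Genes of the interleukin 1 system rose among its ligands, receptors, inhibitors and signalling proteins. Of 16 members of the system 15 rose and 0 fell, with a median of 1.35. Il1a, the ligand released from damaged cells, rose by 2.49 ± 0.20, and Il33, an alarmin of stromal cells, by 1.32 ± 0.15. Casp1, the protease that matures interleukin 1 beta, rose by 1.52 ± 0.17, its sensor Nlrp3 by 2.73 ± 0.21, and the signalling adaptor Myd88 by 1.32 ± 0.12. The signalling receptor Il1r1 rose by 1.06 ± 0.13 and its partner Il1rap by 0.41 ± 0.07. The probe set of Il1rap with the largest variance gave 1.05.

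The decoy receptor and the antagonist had larger changes than the signalling receptors. Il1r2, the decoy receptor, read -0.95, -0.97, -0.64 and 0.00 in the non-ligated arrays and 3.77, 3.21 and 2.97 in the ligated ones. Il1rn, the receptor antagonist, read -0.39, -0.89, -0.36 and 0.00 in the non-ligated arrays and 3.05, 2.75 and 2.71 in the ligated ones. In both genes non-ligated array 4 read 0 and was still far below the lowest ligated array, and the rises were 3.96 ± 0.30 (15.5-fold) and 3.25 ± 0.22 (9.51-fold). Irak3, a kinase-dead brake on Myd88 signalling, rose by 1.37 ± 0.11. The member that did not pass was a ligand of the interleukin 36 branch. With any 1 of the 7 arrays left out the count was 14 or 15.

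Chemokines rose in 22 of 27 members, with a median of 2.02 and 0 lower. Among the CXC ligands, which mostly draw neutrophils, Cxcl2 read -0.94, -0.85, -0.44 and 0.00 in the non-ligated arrays and 4.13, 3.51 and 3.27 in the ligated ones. It rose by 4.19 ± 0.31 (18.3-fold), beside Cxcl3 (4.58), Cxcl5 (2.91 ± 0.15) and Cxcl16 (2.02 ± 0.10). Among the CC ligands, which mostly draw monocytes and lymphocytes, Ccl6 and Ccl9, chemokines of the mouse myeloid cluster, rose by 2.74 ± 0.29 and 2.74 ± 0.28, and the monocyte and eosinophil chemokine Ccl8 by 2.42 ± 0.18. Of 8 receptors 6 rose and 2 did not pass, the lowest change being -0.04. Cxcr2, which binds the Cxcl2 family on neutrophils, rose by 3.83 ± 0.30 and Ccr1, a receptor for Ccl3, by 3.65 ± 0.22. Ccr2, the monocyte receptor, rose by 2.48 ± 0.20 beside its ligand Ccl2 (2.41 ± 0.19). Cxcr4 rose by 2.84 ± 0.40 and its ligand Cxcl12 by 0.97 ± 0.16. Ccl11, the eosinophil chemokine, did not pass (-0.36 ± 0.20).

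The NF-kB motif, the site bound by the NF-kB transcription factors, lies in 5 of 19 chemokine promoters (26.3%). It lies in 2 of 23 promoters of the interleukin 1 system (8.7%) and in 4.51% of all 32851 promoters of the same 300-base window. Lists outside inflammation hold it too. They are contractile genes, which mostly fell (2 of 18 promoters), mitosis genes (2 of 20) and DNA replication genes (1 of 22). Whether any list differs from all promoters was not tested. The 19 chemokine promoters came from 19 of the 27 measured genes, and the window runs from 250 bases before to 50 bases after the start of the transcript. The promoters of Cxcl2 and Cxcl3 are shown because these neighbours on chromosome 5 carry the same motif and rose by similar amounts, 4.19 and 4.58. Ccl9, whose rise was smaller, also holds a match, which begins 35 bases before the start, and is not shown. Whether the motif bears on the size of a rise was not tested. The sequences are from RefSeq, build GRCm38.p6, 5′ to 3′ on the strand of the gene, from 250 bases before the start through base 20, with the motif in capitals. A match says only that these letters are present, on either strand.
Cxcl2 promoter (chr5:90903649-90903918, plus strand): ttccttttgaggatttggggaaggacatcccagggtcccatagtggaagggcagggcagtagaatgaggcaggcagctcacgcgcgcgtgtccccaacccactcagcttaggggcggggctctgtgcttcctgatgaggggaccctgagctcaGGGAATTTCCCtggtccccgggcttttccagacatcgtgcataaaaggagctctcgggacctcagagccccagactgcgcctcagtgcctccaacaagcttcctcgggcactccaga
Cxcl3 promoter (chr5:90785851-90786120, plus strand): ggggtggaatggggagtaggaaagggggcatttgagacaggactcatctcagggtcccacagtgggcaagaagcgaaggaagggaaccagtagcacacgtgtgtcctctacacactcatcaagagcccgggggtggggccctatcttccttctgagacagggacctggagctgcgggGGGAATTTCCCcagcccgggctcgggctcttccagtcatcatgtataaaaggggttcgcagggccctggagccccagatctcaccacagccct
The match begins 97 bases before the start in Cxcl2 and 73 bases before it in Cxcl3.

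Receptors of myeloid cells rose almost throughout. Of 26 members 24 rose and 0 fell, with a median of 2.78. The C-type lectin Clec4n (dectin 2) rose by 4.02 ± 0.17, beside Clec4d, Clec4e and Clec7a. Among the Toll-like receptors Tlr13, which senses bacterial ribosomal RNA, rose by 3.79 ± 0.23 and Cd14, the co-receptor of Tlr4, by 3.76 ± 0.29, while Tlr4 itself did not pass (0.28 ± 0.10). Fcgr1, the high-affinity receptor for IgG, rose by 3.07 ± 0.24, and the adaptors Tyrobp and Fcer1g by 3.24 ± 0.21 and 2.90 ± 0.23. Trem2, the lipid receptor of foamy macrophages, rose by 3.04 ± 0.13 and Trem1, which amplifies inflammation, by 3.11 ± 0.25. Lilrb4a rose by 3.81 ± 0.50 with a wide error.

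Tumour necrosis factor and the feedback genes of NF-kB rose in 14 of 15 members, median 0.87. Tnf itself rose by 3.51 ± 0.23 and its receptor Tnfrsf1b by 2.71 ± 0.15, against 0.74 ± 0.09 for Tnfrsf1a. The inhibitors that NF-kB induces against itself all passed, led by Nfkbie (1.97 ± 0.14) and Tnfaip3 (1.47 ± 0.15). Of 4 subunits 3 rose, led by Rel (1.94 ± 0.16). In the interleukin 6 family 7 of 13 rose and 1 fell. Il6 rose by 2.29 ± 0.20, its receptor Il6ra by 1.53 ± 0.14, Osm by 1.70 ± 0.18 with its receptor Osmr (1.05 ± 0.13), and the targets Bcl3 and Socs3 by 1.77 ± 0.21 and 1.30 ± 0.15. The shared signalling chain Il6st did not pass (0.16 ± 0.09), and Lifr was the member that fell (-0.47 ± 0.13), a call lost without ligated array 3 (-0.42) or 5 (-0.46).

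**Figure D3:**
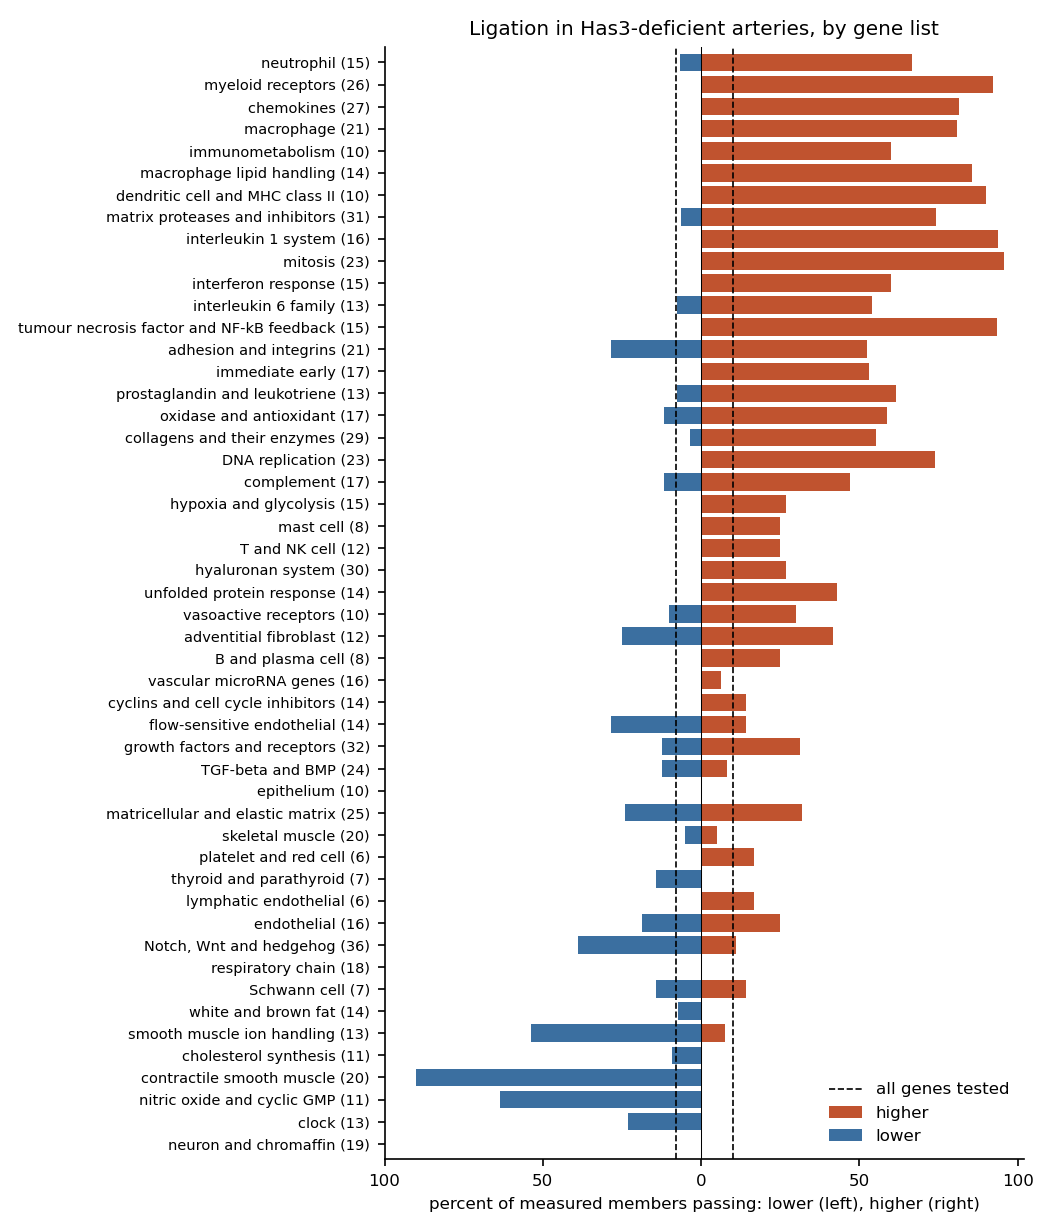
Percent of measured members (x axis) of each gene list (y axis, number of measured members in brackets) that passed as higher (right) or lower (left) in ligated Has3-deficient arteries, with dashed lines at the shares of all genes, 10.2% and 8.08%. Mitosis, interleukin 1, myeloid receptor and NF-kB feedback lists lie above 90% higher, and 18 of 20 contractile genes fell.

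Markers of leukocytes rose with these signals. Of 21 macrophage markers 17 rose and 0 fell, with a median of 1.86. Mpeg1, a pore-forming protein of macrophages, read -1.09, -0.63, -0.44 and 0.00 in the non-ligated arrays and 3.52, 3.44 and 3.16 in the ligated ones. It rose by 3.91 ± 0.21, and Cd68, a lysosomal protein of phagocytes, and Itgam, an integrin chain of myeloid cells, by 3.52 ± 0.32 and 3.83 ± 0.26. Arg1, arginase of wound-type macrophages, rose by 3.95 ± 0.40. The 4 markers that did not pass had changes from -0.18 to 0.14 and included Timd4 (-0.18 ± 0.17) and Cd163 (0.14 ± 0.18), which mark long-lived resident macrophages.

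Of 15 neutrophil markers 10 rose, with a median of 3.03. S100a8, a calcium-binding alarmin, read -1.11, -1.15, -0.76 and 0.00 in the non-ligated arrays and 3.26, 2.89 and 2.33 in the ligated ones. It rose by 3.58 ± 0.34, and the growth factor receptor Csf3r by 3.93 ± 0.31, beside Stfa2l1 and Cxcr2. Genes of granule proteins, which neutrophils make as they mature in the bone marrow, split: Mmp8 rose (3.03), while 4 did not pass, with changes from -0.14 (Elane, neutrophil elastase) to -0.02. Camp, a further granule gene, fell by 0.20 on the log2 scale (standard error 0.06), a call lost without any 1 of non-ligated arrays 1 and 2 and ligated arrays 3, 5 and 6, where its change ran from -0.22 to -0.18.

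Genes of antigen presentation rose in 9 of 10 members, median 1.59. The class II genes H2-Ab1 and H2-Aa rose by 2.16 ± 0.24 and 1.93 ± 0.19, the co-stimulator Cd80 by 3.24 ± 0.21 and the integrin chain Itgax by 3.52 ± 0.20. Lymphocyte markers moved less. Of 12 T and NK cell genes 3 passed as higher, Cd3e (1.01 ± 0.30), Cd3g (0.70 ± 0.21) and Cd4 (0.44 ± 0.13), and each of these calls was lost without at least 5 of the 7 arrays taken singly (Cd3e 0.79 to 1.04, Cd3g 0.57 to 0.70, Cd4 0.38 to 0.47). Without non-ligated array 3, 1 remained. Of 8 B and plasma cell genes Cd22, an inhibitory lectin, rose by 1.31 ± 0.17, while the defining markers Ms4a1 (-0.05) and Pax5 (-0.07) did not pass. Xbp1 (0.23) passed too, and not without any 1 of the 7 arrays (0.19 to 0.25). Of 8 mast cell genes Hdc, histidine decarboxylase, rose by 3.99 ± 0.33 and Kit by 1.06 ± 0.28, the second call being lost without ligated array 3 (0.94). Cpa3, a protease of mast cell granules, did not pass (0.90 ± 0.82). Platelet and red cell genes passed in 1 of 6, Pf4 (2.39 ± 0.22), which macrophages also express. A further member passed as lower without non-ligated array 3 or 4 or ligated array 5.

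Of 16 measured genes of microRNAs known in the vessel wall 1 passed, against 18.3% of all genes. Mir142, the gene of a microRNA restricted to blood cells, read -0.44, -0.20, -0.33 and -0.35 in the non-ligated arrays and 0.80, 0.85 and 0.26 in the ligated ones. It rose by 0.97 ± 0.17 (adjusted p = 0.00103), with no overlap between the groups and ligated array 6 lowest among the ligated ones. The array signal is that of the gene and does not say which arm was made. Both mature arms, from RefSeq build GRCm38.p6, are shown 5′ to 3′ with the seed, bases 2 to 8, in capitals, since the seed sets which messages each arm can bind.
mmu-miR-142a-5p (chr11:87756867-87756887, plus strand): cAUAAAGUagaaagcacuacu
mmu-miR-142a-3p (chr11:87756903-87756925, plus strand): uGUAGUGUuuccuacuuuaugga
The 2 arms have different seeds. The other 15 genes had changes from -0.14 (Mir31) to 0.49 (Mir23a), and Mir221 and Mir222, known from proliferating smooth muscle, had 0.34 ± 0.12 and 0.20 ± 0.13. Without non-ligated array 2, 3 of the 16 passed.

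Adhesion genes split by class. Leukocyte integrins and ligands rose in 6 of 6, led by Itgb2 (3.85 ± 0.26), Itgam and Selplg (2.88 ± 0.18), the ligand of selectins. Of 5 endothelial adhesion genes Sele (1.11 ± 0.22), Vcam1 (0.86 ± 0.20) and Icam1 (0.81 ± 0.16) rose and Pecam1, of endothelial junctions, fell (-0.64 ± 0.13). Of 10 integrin chains of matrix receptors 5 fell, led by Itga9 (-0.93 ± 0.16), Itga7 (-0.91 ± 0.15) and Itga8 (-0.67 ± 0.13), while Itga4 (1.41 ± 0.08) and Itga2 (1.34 ± 0.24) rose.

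Complement genes rose in 8 of 17 and fell in 2. The 3 chains of C1q rose by 1.53 to 2.34 and properdin (Cfp) by 1.83 ± 0.17. The receptors for the anaphylatoxins, C3ar1 and C5ar1, rose by 3.22 ± 0.19 and 2.42 ± 0.16. C7, a terminal component made by mesenchymal cells, fell (-1.22 ± 0.27), as did the membrane inhibitor Cd59a (-0.83 ± 0.12).

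Enzymes that break down matrix rose in most families. Of 31 proteases and inhibitors 23 rose and 2 fell, with a median of 1.48. Besides Mmp12, the collagenase Mmp13 rose by 3.52 ± 0.17, the neutrophil collagenase Mmp8 by 3.03 ± 0.27 and Mmp19 by 3.02 ± 0.21. Adam8, a protease of myeloid cells, rose by 4.02 ± 0.31, Adam12 by 2.28 ± 0.27, and the aggrecanase Adamts4, which cleaves versican, by 1.40 ± 0.18. In the plasminogen system the activator Plau (1.88 ± 0.14), its receptor Plaur (2.06 ± 0.18) and its inhibitor Serpinb2 (3.42 ± 0.28) rose together. All 5 cathepsins rose, from 0.74 to 3.60, the last being Ctss of antigen-presenting cells.

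The inhibitors of metalloproteinases split. Timp1 read -0.58, -0.21, -0.28 and 0.00 in the non-ligated arrays and 2.50, 2.20 and 2.21 in the ligated ones. It rose by 2.57 ± 0.16 (5.94-fold), and its ligated arrays lay far above the non-ligated ones. Timp3 (-0.44 ± 0.13) and Timp4 (-0.79 ± 0.23), the inhibitors made by quiescent smooth muscle, fell, and Timp2 did not pass (-0.20 ± 0.07). Timp3 did not pass without any 1 of non-ligated arrays 1 and 2 and ligated arrays 3 and 5 (-0.46 to -0.39), nor Timp4 without any 1 of non-ligated arrays 1 and 4 and ligated array 3 (-0.71 to -0.61).

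Collagens split by type. Of 7 fibrillar chains 6 rose, and Col1a1, the main chain of scar collagen, read 0.00, -0.01, -0.50 and -0.28 in the non-ligated arrays and 1.01, 0.89 and 0.91 in the ligated ones. It rose by 1.13 ± 0.11 (2.19-fold), with Col5a3 (1.12 ± 0.13), Col3a1 (1.07 ± 0.14) and Col5a2 (0.999 ± 0.10) close to it. Of the other chains Col12a1 rose by 1.89 ± 0.26 and Col8a1, of smooth muscle in injured arteries, by 1.14 ± 0.27. No chain of the basement membrane rose. There 1 of 6 fell with all arrays, Col4a5 (-0.53 ± 0.16), and 4 of 6 without non-ligated array 3, Col4a5 (-0.66), Col4a6 (-0.86), Col18a1 (-0.78) and Col15a1 (-0.42). Without non-ligated array 4 the count was 3, and without any 1 of the other 5 arrays it was 0. Of the enzymes of collagen, the prolyl hydroxylase P4ha3 rose by 2.93 ± 0.26, the cross-linking oxidase Lox by 1.09 ± 0.14, P4ha1 by 0.92 ± 0.13 and Plod1 by 0.90 ± 0.11.

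Other matrix genes went both ways, 8 higher and 6 lower of 25, with a median of -0.03, the same as over all genes. Thbs1, an activator of latent TGF-beta, rose by 2.85 ± 0.23, Tnc, tenascin C of remodelling tissue, by 2.46 ± 0.16, Tgfbi by 1.06 ± 0.08 and Thbs2 by 0.95 ± 0.13. Elastic fibre genes leaned the other way, with Ltbp4 (-0.997 ± 0.22) and Ltbp1 (-0.68 ± 0.12), which tether latent TGF-beta to microfibrils, lower: 3 of 8 fell and 1 rose, and 0 rose without non-ligated array 3 or ligated array 5 or 6. Among small leucine-rich proteoglycans Omd fell by 1.22 on the log2 scale (standard error 0.21) and Ogn by 0.65 (0.13), and Lum rose by 1.08 ± 0.12.

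Genes of cell division were higher in the ligated arteries. Of 23 mitosis genes 22 rose and 0 fell, with a median of 1.34. Mki67, a coat protein of mitotic chromosomes, read -0.55, -0.62, -0.49 and -0.92 in the non-ligated arrays and 2.00, 1.70 and 1.98 in the ligated ones. It rose by 2.54 ± 0.18 (5.81-fold, adjusted p = 2.89e-07). Ccna2, cyclin A of S phase and G2, rose by 2.09 ± 0.24, Ccnb2, cyclin B2 of mitosis, by 1.92 ± 0.16 and Top2a, which untangles sister chromatids, by 1.90 ± 0.11. The non-ligated arrays of these genes lay close together, and array 3 was not apart. Anln, whose product closes the cleavage furrow and also serves other cells, was the member that did not pass (0.34 ± 0.15). The count was 22 as well with any 1 of the 7 arrays left out.

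Genes of DNA replication rose in 17 of 23 members, by less: the median was 0.44. Tk1, thymidine kinase, rose by 0.94 ± 0.12, the licensing factor Cdt1 by 0.82 ± 0.09, and Mcm5 and Mcm3 of the replicative helicase by 0.80 ± 0.12 and 0.74 ± 0.11. Of 14 cyclins of G1 and cell cycle inhibitors 2 rose, against 10.2% of all genes. They were the inhibitor Cdkn1a (1.55 ± 0.21) and Rbl1, a pocket protein that is itself a target of E2F (0.80 ± 0.12). None fell with all arrays, and 2 did without non-ligated array 3. Ccnd1, the cyclin of growth factor signals, did not pass (0.32 ± 0.14).

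Most promoters of the mitosis genes hold a short element. The CHR element, TTTGAA on either strand, binds the complex that keeps mitotic genes silent outside G2 and mitosis. It lies in 16 of 20 promoters of the mitosis list (80.0%, 19 of 23 genes matched), in 3 of 22 of the replication list (13.6%) and in 17.9% of all promoters. The CCAAT box, CCAAT on either strand, lies in 16 of 20 (80.0%), 15 of 22 (68.2%) and 37.4%. The AP-1 site, TGACTCA or TGAGTCA on either strand, lies in 0 of 20 mitosis promoters against 5.2% of all. The promoters of 3 of these genes, which have large rises in this list, are shown with each CHR in capitals, from RefSeq build GRCm38.p6 and cut as above.
Mki67 promoter (chr7:135716360-135716629, minus strand): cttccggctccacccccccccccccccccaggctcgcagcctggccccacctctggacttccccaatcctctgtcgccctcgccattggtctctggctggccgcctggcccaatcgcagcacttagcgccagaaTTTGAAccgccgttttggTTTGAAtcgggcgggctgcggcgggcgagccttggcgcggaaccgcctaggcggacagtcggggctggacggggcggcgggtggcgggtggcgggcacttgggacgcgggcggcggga
Ccnb2 promoter (chr9:70421535-70421804, minus strand): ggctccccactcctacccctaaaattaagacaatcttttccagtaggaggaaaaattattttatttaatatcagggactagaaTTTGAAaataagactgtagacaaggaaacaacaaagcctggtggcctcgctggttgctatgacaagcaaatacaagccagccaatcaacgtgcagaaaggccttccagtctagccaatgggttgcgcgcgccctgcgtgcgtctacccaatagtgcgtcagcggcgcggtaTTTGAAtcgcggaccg
Top2a promoter (chr11:99024170-99024439, minus strand): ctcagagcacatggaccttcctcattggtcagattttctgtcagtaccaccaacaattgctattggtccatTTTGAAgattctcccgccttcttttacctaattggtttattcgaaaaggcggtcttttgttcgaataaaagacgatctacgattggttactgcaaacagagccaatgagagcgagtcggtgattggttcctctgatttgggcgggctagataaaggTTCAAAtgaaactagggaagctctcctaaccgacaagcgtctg
Each holds 2 copies. In Mki67 they begin 116 and 98 bases before the start. In Top2a the copy nearer the start, 23 bases before it, is on the opposite strand and is read as TTCAAA.

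Genes of the contractile apparatus fell almost as a block. Of 20 members 18 fell and 0 rose, against 8.08% lower over all genes, with a median of -0.65. Synpo2, an actin-bundling protein of smooth muscle, read 0.58, 0.59, 0.00 and 0.32 in the non-ligated arrays and -1.05, -0.75 and -0.61 in the ligated ones. Lmod1, which nucleates actin filaments, read 0.93, 0.83, 0.00 and 0.30 in the non-ligated arrays and -0.59, -0.39 and -0.60 in the ligated ones, and Myh11, the smooth muscle myosin heavy chain, read 0.50, 0.44, 0.00 and 0.28 in the non-ligated arrays and -0.83, -0.41 and -0.43 in the ligated ones. In all 3 the groups did not overlap, non-ligated array 3 was the lowest of its group at 0.00, and arrays 1 and 2 were the highest. Synpo2 changed by -1.18 ± 0.23, Lmod1 by -1.04 ± 0.19 and Myh11 by -0.87 ± 0.17, or 1.83-fold lower.

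These falls were modest in size. Acta2, smooth muscle actin, fell by 0.28 on the log2 scale (standard error 0.07) and did not pass without ligated array 3 (-0.23). Myocd, the co-activator of contractile genes, changed by -0.93 ± 0.26, and Srf, the factor it binds, by -0.13 ± 0.16 and did not pass. Actg2, enteric actin, changed by -0.95 ± 0.25. Without ligated array 3 neither Myocd (-0.83) nor Actg2 (-0.95) passed, and Myocd did not pass either without non-ligated array 1 (-0.87) or 2 (-0.87) or ligated array 6 (-0.97). Without non-ligated array 3 the list's median was -0.75 and 18 members fell. The mean of the 21 macrophage markers ran from 1.35 to 1.45 in the same ligated arrays and from -0.95 to -0.09 in the non-ligated ones, and its part in the lower contractile values was not tested.

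The CArG box, the site bound by Srf, lies in 4 of 18 promoters of the contractile list (22.2%, 16 of 20 genes matched) and in 1.63% of all promoters. The promoters of Myl9, the regulatory myosin light chain, and Ldb3, a Z-disc protein, are shown with the box in capitals because both genes fell, Myl9 by 0.50 on the log2 scale and Ldb3 by 0.88. They are from RefSeq build GRCm38.p6 and cut as above.
Myl9 promoter (chr2:156775214-156775483, plus strand): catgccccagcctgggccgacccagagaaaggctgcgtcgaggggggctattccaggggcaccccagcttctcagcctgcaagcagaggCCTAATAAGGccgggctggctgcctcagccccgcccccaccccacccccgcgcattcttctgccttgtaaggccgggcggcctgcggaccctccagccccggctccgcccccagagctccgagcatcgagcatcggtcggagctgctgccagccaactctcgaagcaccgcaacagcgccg
Ldb3 promoter (chr14:34588662-34588931, minus strand): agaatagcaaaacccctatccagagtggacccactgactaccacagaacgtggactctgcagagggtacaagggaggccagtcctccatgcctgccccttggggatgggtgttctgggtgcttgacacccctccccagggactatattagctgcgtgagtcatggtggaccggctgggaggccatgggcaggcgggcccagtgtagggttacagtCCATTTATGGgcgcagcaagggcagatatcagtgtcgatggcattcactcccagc
The box begins 161 bases before the start in Myl9 and 35 bases before it in Ldb3, where 1 of 2 listed promoters is shown.

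Ion handling of smooth muscle fell with the contractile genes, in 7 of 13 members (1 higher, and 0 without any 1 of non-ligated arrays 2 and 3 and ligated arrays 3 and 6, median -0.51). Ryr2, a calcium release channel of the sarcoplasmic reticulum, changed by -1.26 ± 0.14, the calcium pump Atp2a3 by -1.16 ± 0.25 and Kcnmb1, the subunit that lets calcium open potassium channels, by -0.77 ± 0.10. Genes of nitric oxide and cyclic GMP signalling, which relaxes the muscle, fell in the same way: 7 of 11 members were lower and 0 higher, median -0.67. Nos3, the endothelial nitric oxide synthase, read 0.90, 0.999, 0.01 and 0.00 in the non-ligated arrays and -0.42, -0.53 and -0.60 in the ligated ones. It changed by -0.99 ± 0.22 (1.99-fold lower), the receptor subunit Gucy1b1 by -0.92 ± 0.20, its partner subunit Gucy1a1 by -0.73 ± 0.11 and the kinase Prkg1 by -0.88 ± 0.19. Of 10 receptors for vasoactive agents Ptgir, for prostacyclin, rose by 0.84 ± 0.09, Ednrb, for endothelin, by 0.96 ± 0.28 and Avpr1a, for vasopressin, by 0.50 ± 0.14, and Tbxa2r, for thromboxane, changed by -0.60 ± 0.16. The number lower, 1 with all arrays, was 2 without non-ligated array 3 and 0 without any 1 of non-ligated arrays 1 and 2 and ligated arrays 3 and 5. Without ligated array 3 Ptgir still passed, and Ednrb (0.96), Avpr1a (0.40) and Tbxa2r (-0.61) did not.

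Endothelial genes showed no common direction, with 4 higher and 3 lower of 16 and a median of -0.18. Emcn (0.97 ± 0.22), Robo4 (0.81 ± 0.21) and the junction cadherin Cdh5 (0.72 ± 0.15) rose, and Tek, the angiopoietin receptor, changed by -0.86 ± 0.18. Kdr, the main VEGF receptor, read -0.59, -1.83, -0.72 and -0.02 in the non-ligated arrays and 0.43, 0.30 and 0.48 in the ligated ones. Its groups did not overlap, but its call (change 1.19 ± 0.38) was lost without any 1 array other than non-ligated array 4 (0.85 to 1.26). Without ligated array 3 Robo4 did not pass either (0.73), and the number higher was 2. Of 14 genes that respond to flow 4 fell and 2 rose. Besides Klk10 and Nos3, thrombomodulin (Thbd) fell by 0.60 on the log2 scale (standard error 0.09), and Apln and Dll4, genes of endothelial tips, rose by 0.84 ± 0.16 and 0.97 ± 0.20.

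Markers of adventitial fibroblasts were mixed, 5 higher and 3 lower of 12, and 2 and 3 without non-ligated array 3. Lum, the proteoglycan lumican, rose by 1.08 ± 0.12, and Clec3b, tetranectin, and Gsn, gelsolin, changed by -0.77 ± 0.15 and -0.74 ± 0.11. Dpp4 passed with all arrays (0.66 ± 0.21) and not without array 3 (0.69, adjusted p = 0.0504). Without ligated array 5 or 6 the number higher was 2 or 1.

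Of 32 growth factors and their receptors 10 rose and 4 fell. Hgf, hepatocyte growth factor, rose by 1.72 ± 0.18 and its receptor Met by 1.27 ± 0.18. In the platelet-derived family Pdgfb rose by 0.83 ± 0.19 and Pdgfd, abundant in arterial smooth muscle, changed by -0.85 ± 0.15, while the receptor Pdgfrb did not pass (-0.14 ± 0.16). Of the EGF family Egfr rose by 0.48 ± 0.10 and Erbb4 changed by -0.82 ± 0.17, and without non-ligated array 3 the number of the family higher was 2. Vegfa (1.03 ± 0.31) passed with all arrays and not without non-ligated array 3, where its change was 1.04 with adjusted p = 0.0509. Its call was also lost without any 1 of non-ligated arrays 1 and 2 and the ligated arrays (0.90 to 1.08). Without any 1 of the ligated arrays the number higher was 6, and without non-ligated array 3 the number lower was 7.

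TGF-beta genes passed in 5 of 24, near the share of all genes, 18.3%, so the list did not stand apart. Of these 5, 2 were higher (1 without non-ligated array 3). Tgfb1 rose by 1.28 ± 0.15, and Fstl3, an activin antagonist, changed by -0.72 ± 0.15. Tgfb3 (-0.46 ± 0.15), Tgfbr3 (-0.38 ± 0.12) and Inhbb (0.34 ± 0.10) passed too, but each lost its call without at least 4 of the 7 arrays taken singly, where Tgfb3 ran from -0.51 to -0.39, Tgfbr3 from -0.37 to -0.33 and Inhbb from 0.30 to 0.38. Genes of the hedgehog pathway, a signal from endothelium and other cells to the mesenchyme of the wall, were lower. Of 9 members 5 fell and 0 rose. Ptch1, the receptor and a target of the pathway, read 0.58, 0.06, 0.15 and 0.01 in the non-ligated arrays and -1.08, -0.55 and -0.79 in the ligated ones. It changed by -1.01 ± 0.16, beside Hhip, the ligand Dhh (-0.94 ± 0.17) and the factors Gli1 (-0.78 ± 0.16) and Gli2 (-0.56 ± 0.12). All 5 remained called with any 1 of the 7 arrays left out.

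Notch and Wnt genes were mixed. The Notch targets Heyl and Hey2 of smooth muscle changed by -0.96 ± 0.22 and -0.89 ± 0.14, and the ligand Dll4 rose. After quantile normalization of the arrays Heyl did not pass (-1.46, adjusted p = 0.0547). Of 15 Wnt genes 6 fell and 2 rose: Wnt5a changed by -0.998 ± 0.15, its receptor Fzd2 by -0.88 ± 0.21 and the inhibitor Wif1 by -1.04 ± 0.27, while the inhibitor Sfrp4 rose by 0.92 ± 0.15. Without ligated array 6 the number of Wnt genes higher was 1. Without ligated array 3 the number lower was 3, and Wif1 did not pass without it (-0.97) or without ligated array 5 (-1.02).

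Lipid handling of macrophages rose in 12 of 14 members, with a median of 1.63. Olr1, a receptor for oxidised lipoprotein, rose by 3.62 ± 0.17 and Msr1, the class A scavenger receptor, by 3.27 ± 0.19. The lipid-binding Fabp5 rose by 1.84 ± 0.43, beside Trem2 (3.04). The subunits of the phagocyte NADPH oxidase rose, Cybb by 3.75 ± 0.28, Ncf1 by 2.94 ± 0.16 and Ncf4 by 2.80 ± 0.16, and Hmox1, haem oxygenase of oxidative stress, by 3.30 ± 0.20. Nox4, the oxidase of resting smooth muscle, changed by -0.74 ± 0.17. Ptgs2, the inducible cyclooxygenase, rose by 2.30 ± 0.36, Alox5ap, needed for leukotrienes, by 1.55 ± 0.10 and the prostaglandin E2 receptor Ptger2 by 0.98 ± 0.12. Ptgis, prostacyclin synthase, was lower (-0.88 ± 0.24), a call lost without ligated array 3 (-0.80) or 6 (-0.87) or non-ligated array 1 (-0.76) or 2 (-0.78). Of 10 genes of amino acid and itaconate metabolism in activated macrophages 6 rose, among them Acod1, Arg1, Hdc and the cystine transporter Slc7a11 (2.79 ± 0.18, and 4.45 for its probe set with the largest variance).

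Leaving out non-ligated array 3 kept 90.4% of all calls, against 81.5%, 83.2% and 90% without non-ligated arrays 1, 2 and 4 and 66.9%, 74.8% and 77.9% without ligated arrays 3, 5 and 6. Without array 3, 4354 genes passed (19.6%), 2219 higher (10%) and 2135 lower (9.63%). Of the 2262 genes called higher with all arrays 2053 were still called and 209 were not, and 166 were called only without it. Of the 1793 called lower, 1614 remained, 179 were lost and 521 were added. In 465 of those 521 genes array 3 was the lowest of the non-ligated arrays, and in 102 of the 179 it was the highest. Leaving out the lowest non-ligated array enlarges a fall and leaving out the highest shrinks it. These 2 counts therefore follow in part from how the genes were picked. Of the 749 genes up more than 2-fold 745 still passed, and of the 106 down more than 2-fold 101 did, 78 of them still by more than 2-fold. Without array 3, 148 genes fell by more than 2-fold. The median spread of the non-ligated arrays over all genes was 0.137 (SD) with array 3 and 0.116 without it.

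The neuronal genes themselves did not pass in either fit, save 1. With all arrays 0 of 19 passed and the median change was -1.46. Without array 3 the median was -0.50 and Uchl1, an abundant neuronal deubiquitinase, passed (-0.36 ± 0.09, adjusted p = 0.011). Th, tyrosine hydroxylase, read 2.69, 0.00, 5.93 and 3.07 in the non-ligated arrays and -0.34, 0.94 and 0.73 in the ligated ones. Its change was -2.48 ± 1.15 with all arrays and -1.48 ± 0.99 without array 3. Dbh, dopamine beta-hydroxylase, read 0.35, -0.07, 6.90 and 3.85 in the non-ligated arrays and -0.21, 1.76 and 1.73 in the ligated ones, the largest excess of array 3 over the mean of the other non-ligated arrays of any gene, 5.52 log2 units. Of the 594 genes more than 2-fold higher in array 3, 38 passed as lower with it and 53 without it, against 8.08% and 9.63% of all genes. As higher, 29 and 65 passed, against 10.2% and 10%. These 594 were picked by their high value in array 3, which itself lowers their changes where that array is included.

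The genes whose call ended without array 3 had modest changes or an outlying array. Lix1 read 1.36, 0.17, 2.61 and 0.94 in the non-ligated arrays and -0.33, 0.03 and -0.21 in the ligated ones. It changed from -1.43 ± 0.44 to -0.99 ± 0.33 (adjusted p = 0.0533). Akap12, a scaffold of kinases, changed from -1.12 to -0.91 and Kcnip4, a subunit of neuronal potassium channels, from -1.05 to -0.70, and array 3 was the highest in both. Lyz1 (1.61 to 1.59), Lrrn1 (-1.19 to -1.12) and Chrna7 (-1.01 to -0.84), like Kdr and Vegfa, changed less in size and lost the call with 1 array fewer. Each of these 8 genes also lost its call without at least 3 other arrays taken singly.

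Other genes passed only without array 3. Slc2a3, a glucose transporter of neurons and leukocytes, read -0.84, -0.84, 2.09 and -0.67 in the non-ligated arrays and 0.46, 0.47 and 0.19 in the ligated ones. With array 3 its change was 0.44 ± 0.57 and without it 1.16 ± 0.28 (adjusted p = 0.00898). Retreg1, a receptor for autophagy of the endoplasmic reticulum, went from 1.29 to 1.82, and Plxnc1, a semaphorin receptor, from 1.11 to 1.64. In these 3 genes array 3 lay above all ligated arrays and the other non-ligated arrays below all of them. Pgk1, of glycolysis, went from 0.94 to 1.17. Tcap (-1.35 to -1.77), Hlf (-1.02 to -1.27), Fibin (-0.91 to -1.19) and Cys1 (-0.97 to -1.17) were lower. For Mest and Slc7a8, which passed in both fits, the rise grew from 1.90 to 2.44 and from 2.44 to 2.94, and for Epb41l4a the fall shrank from -1.45 to -0.89. Without ligated array 3 neither Mest (1.78) nor Epb41l4a (-1.46) passed, and the same held without ligated array 6 (1.82 and -1.41).

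**Figure D4:**
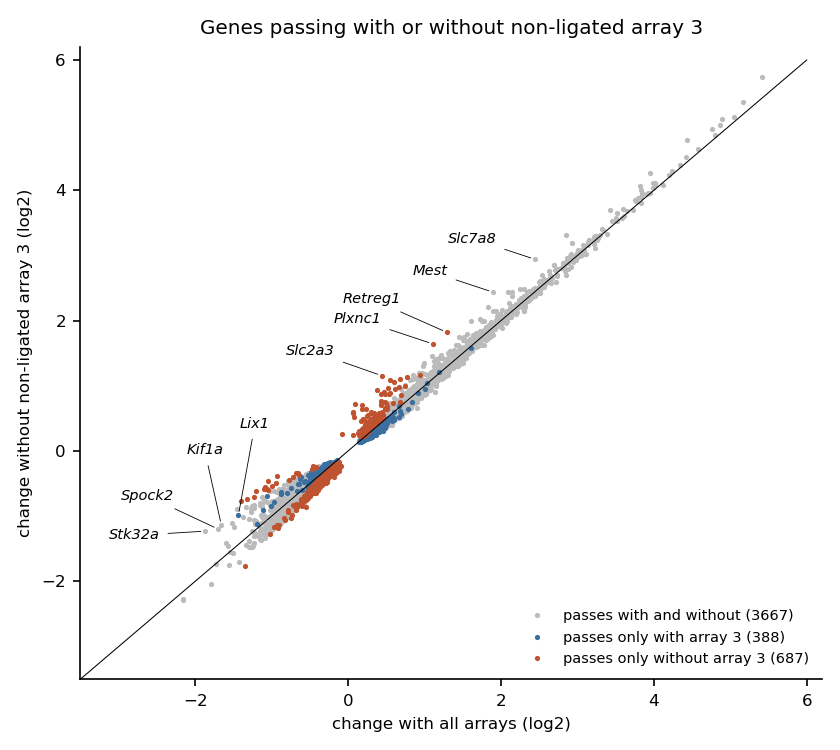
Change of each gene that passed in either fit (log2, ligated minus non-ligated), with all arrays (x axis) and without non-ligated array 3 (y axis), 1 point per gene, with the line of equality. The largest rises lie near the line, and the genes that passed only without array 3 (687) or only with it (388) lie mostly at small to moderate changes.

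The wildtype response, which shares no array with the Has3-deficient one, was tested against it gene by gene. In the limma fit 0 of 22180 genes passed for a difference between the responses (0%), the lowest adjusted p was 0.44, and 1802 genes had an unadjusted p under 0.05. Without non-ligated array 3 the numbers were 0, 0.436 and 1950. Both 1802 and 1950 are larger shares than 0.05 of all genes. Genes on the same arrays move together, and this excess was not tested. The sensitivity of the fit for such a difference was not simulated, so differing responses may have been missed. More genes passed in wildtype, 6173 in all (27.8%), 2925 higher (13.2%) and 3248 lower (14.6%), with 1 ligated array more.

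Most genes that fell in both genotypes fell by less in Has3-deficient arteries, though for no gene was the difference past the threshold. These genes were measured on the same arrays and can move together, so their number is no test of the genotype. Among 1448 genes that fell in both genotypes, 1164 had the smaller fall in the Has3-deficient ones, with a median difference of 0.14, and without non-ligated array 3 these were 1094 and 0.12. Among 1994 genes that rose in both, 1089 rose less, with a median difference of -0.02. The contractile list had a median of -0.65 against -0.996 in wildtype, and the cyclic GMP list -0.67 against -0.90. Without non-ligated array 3 these Has3-deficient medians were -0.75 and -0.73. The ligated arrays of the genotypes overlapped in both lists. The contractile mean was -0.77, -0.70, -0.73 and -0.29 in the wildtype ones and -0.45, -0.30 and -0.30 in the Has3-deficient ones. The cyclic GMP mean ran from -0.57 to -0.33 and from -0.40 to -0.20. The chemokine list had 2.02 against 1.87 and the mitosis list 1.34 against 1.48. Fat genes had -0.48 against -1.40, but the fat mean ran from -0.41 to 1.66 over the Has3-deficient non-ligated arrays and from -0.34 to 1.56 over the wildtype ones. The neuronal list was high in 1 wildtype non-ligated array too, at 2.06 in array 2 against -0.25 or less in the other 3.

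Of the single genes with the lowest p for this difference, none passed. Gucy1a1, the receptor subunit for nitric oxide, read 0.03, 0.03, 0.09 and 0.00 in the non-ligated arrays and -0.91, -0.56 and -0.60 in the ligated ones. Its fall was -0.73 ± 0.11 against -1.51 ± 0.10 in wildtype, a difference of 0.78 ± 0.15 (adjusted p = 0.44). Phf11c rose by 0.67 ± 0.08 against 0.08 ± 0.08 in wildtype (difference 0.59 ± 0.11, adjusted p = 0.44). Rap2a, a small GTPase, had 0.01 ± 0.10 against 0.72 ± 0.09, and Enpp3, an ectonucleotidase, -0.08 ± 0.10 against -0.72 ± 0.10. Gid4, Triqk and Mospd2 had changes of -0.48, -0.28 and 0.24 against -1.07, -0.86 and -0.26, and Epo -0.17 against 0.12. The rise of Mospd2 did not pass in the limma fit without non-ligated array 3 (0.23, adjusted p = 0.0763). Among the largest falls, Klk10 (-3.26 in wildtype) and Ptprz1 (-2.84) fell further in wildtype, with differences of 1.10 ± 0.49 and 1.29 ± 0.43 (adjusted p = 0.604 and 0.503).

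**Figure D5:**
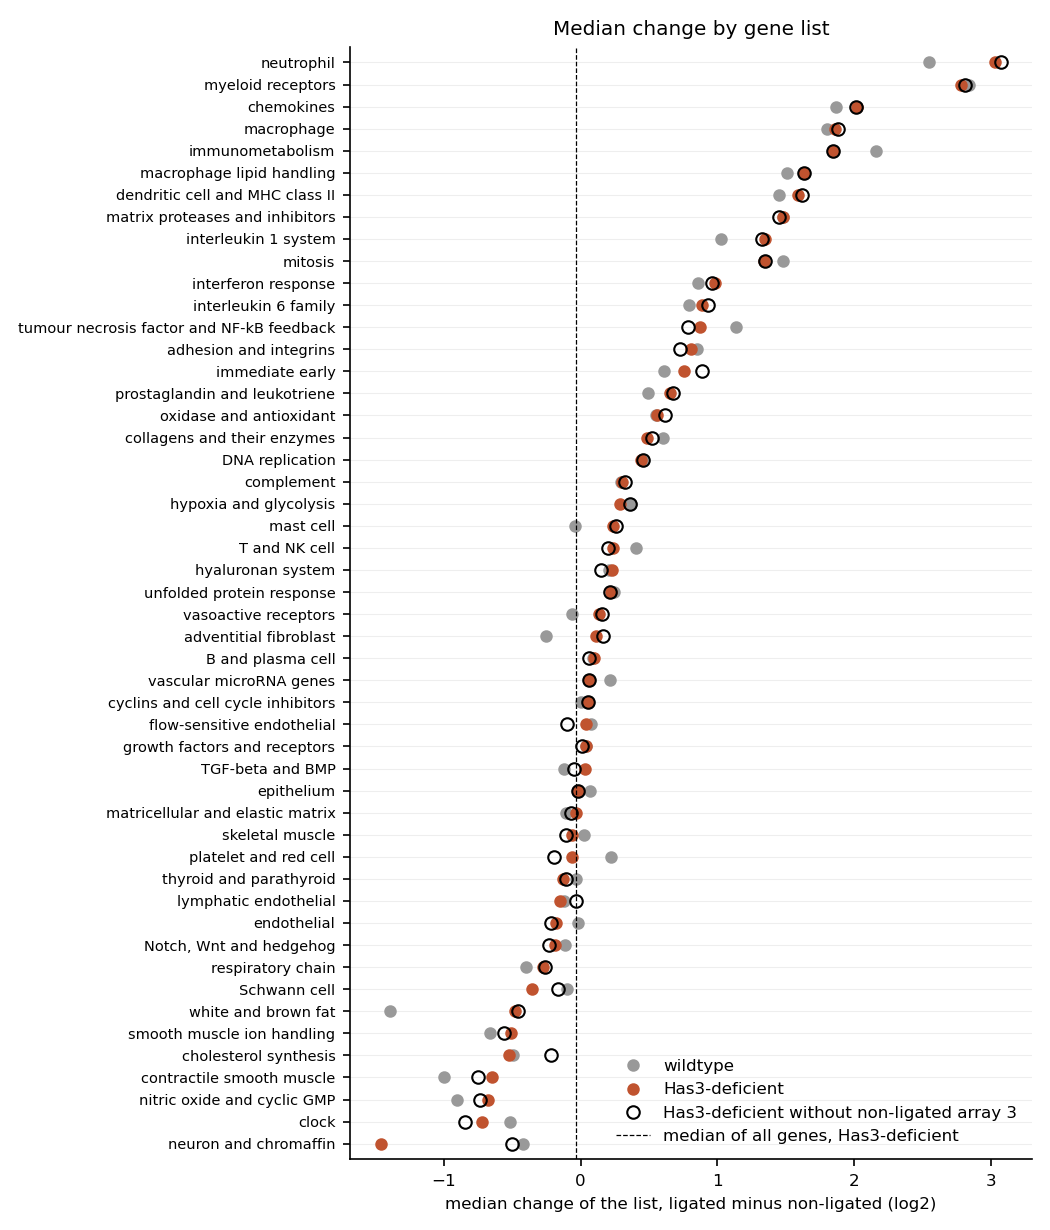
Median change of each gene list (x axis, log2, ligated minus non-ligated; y axis, list) in wildtype (grey), Has3-deficient (red) and Has3-deficient arteries without non-ligated array 3 (open circles), with the median of all genes dashed. The neuron and chromaffin list moves from -1.46 to -0.50 without array 3, and the contractile list lies at -0.65 against -0.996 in wildtype.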

How the data were processed

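RNA of 15 carotid arteries was measured on gene expression arrays, 1 array per sample, with Affymetrix labelling reagents per the labels' protocols. The authors deposited log2 values for 33793 probe sets, from which the median of the probe set across the arrays had been taken off; the log base was inferred from the values, and the summarisation method is not given in the sources used here. Probe sets with exactly 1 gene symbol in GEO's platform annotation (23521; 1814 had several and 8458 none) were averaged per gene, giving 22180 genes. The 4 groups of the labels were fitted together with limma 3.58.1 in R 4.3.3 (lmFit and eBayes, 11 residual and 2.691 prior degrees of freedom), with contrasts for the ligation response in each genotype and for their difference. P-values were adjusted over all genes by the Benjamini-Hochberg method at 0.05. Depth has no counterpart on arrays, and the number of arrays limits the precision. On simulated data of the Has3-deficient comparison 30 of 50 genes changed by 0.5 (log2), 47 of 50 changed by 1 and 46 of 50 changed by -1 were recovered, with 14 false among 186 calls. The simulated noise was normal and independent between genes and arrays, with no outlying array. Far fewer genes were called there than the 4055 in the data, so its cutoff in p was stricter. The recovered shares therefore do not carry over to the data.

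The comparison and the 50 gene lists (800 genes measured) were chosen with earlier results of these data known. Named genes were the 12 largest changes in each direction among genes whose groups did not overlap, leaving out predicted genes, small RNAs and receptor and antibody segments; up to 4 passing members of each list or role with the largest change, with their pair partners; Has1 to Has3; passing microRNA genes; the 8 genes lost and 8 gained without non-ligated array 3, and the 6 whose change it moved most; and the 8 with the lowest p for the difference of the responses. Acta2, Anln, C7, Camp, Ccl11, Cd163, Cdh5, Cemip, Col4a6, Col15a1, Col18a1, Cpa3, Dbh, Elane, Gli2, Itga8, Ldb3, Mir23a, Mir31, Mir221, Mir222, Ms4a1, Myh11, Myl9, Nox4, Pax5, Ptgis, Robo4, Th, Thbd, Timd4, Uchl1 and the genes set beside them as contrasts were chosen after their values were seen. Alternatives were other normalizations, array weights, a fit to 1 genotype, a replicate block, a robust prior, other probe set rules and leaving out each array; leaving out non-ligated arrays 3 and 4 together was added after seeing the data. Promoter and microRNA sequences are those of RefSeq, build GRCm38.p6.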

Additional observations from a re-analysis of the deposited data

Results flagged for a closer look

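Among the 4 Has3-deficient non-ligated arrays, 13 of 336 gene and list values examined had 1 array standing far from the other 3 relative to the range of the group. Such a gap arises by chance in about 1 in 20 groups, and the number flagged is no more than that rate gives. Array 3 was the one apart in 6 cases, array 4 in 5, array 1 in 2 and array 2 in 0. The genes examined were the named ones. Epb41l4a, Kif1a and Slc2a3 met rules based on leaving out array 3, and Uchl1 was named after its values were seen. The tally therefore cannot compare array 3 with the others.

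Array 3 was the highest for Epb41l4a (2.82, with the next array at 0.73), Kif1a (2.71, next 0.81), Slc2a3 (2.09, next -0.67), Uchl1 (1.26, next 0.23) and Mcm3, a helicase subunit (-0.31, next -0.55). It was the lowest for Myocd, the co-activator of contractile genes (-0.0038, next 0.63). Array 4 was the highest for the mean of 20 skeletal muscle genes (0.61, next 0.03), for Nlrp3 (0.00, next -0.43) and Egr2 (0.00, next -0.27), for the proteoglycan Omd (0.26, next 0.04) and for the glucose transporter Slc2a1 (-0.070, next -0.20). Array 1 was the highest for Tnfrsf1a (-0.15, next -0.37) and the lowest for Oas2 (-0.93, next -0.52).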

How the results depend on the processing

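Of the 249 named genes that passed, 203 passed in every alternative run for them and 46 were lost in at least 1; 17 were run for each gene but Mir142, which had 16 because the fit to protein-coding genes leaves it out. The number of genes higher in Has3-deficient ligated arteries (2262) stayed within 1.5 times in every alternative, and ran from 1789 to 2272 with any 1 array left out. The number lower (1793) was 1056 in a fit to the 7 Has3-deficient arrays alone. It ran from 996 (without ligated replicate 3) to 2135 with any 1 array left out. With array weights it was 2461, and without non-ligated arrays 3 and 4 together 2463. Without non-ligated replicate 3 it was 2135, and also without ligated replicate 3 it was 1415. With a random replicate block, whose correlation was -0.0443, 2238 genes were higher and 1774 lower, and Lyz1 and Mospd2 alone of the named genes lost their calls. Labels share 1 replicate number between the Has3-deficient groups, so no paired test was made within this genotype. Changes in list means moved by more than the spread between arrays after quantile normalization, with no sign turned: the mean change of the list went from 1.95 to 1.67 for interleukin 1, from 2.08 to 1.74 for chemokines, from 2.70 to 2.20 for myeloid receptors, from 1.27 to 1.10 for tumour necrosis factor and NF-kB feedback, from 0.85 to 0.75 for interleukin 6, from 2.13 to 1.76 for neutrophils, from 1.55 to 1.32 for MHC class II, from 0.88 to 0.67 for adhesion, from 0.82 to 0.66 for complement, from 1.56 to 1.26 for proteases, from 0.18 to 0.081 for matricellular and elastic matrix, from 1.42 to 1.21 for mitosis, from -0.49 to -0.66 for cyclic GMP, from 1.12 to 0.88 for oxidases, from 1.97 to 1.59 for immunometabolism and from -0.45 to -0.84 for the clock. Quantile normalization also ended the calls of 8 named genes, Heyl, Timp4, Dpp4, Col4a5, Chrna7, Kcnip4, Lrrn1 and Triqk. It made the falls of 11 genes that stayed called more than 1.5 times larger: Klk10 (-3.41), Inmt (-2.81), Pkhd1l1 (-2.37), Atp2a3 (-1.88), Nos3 (-1.64), Plin4 (-1.68), Wif1 (-1.63), Lmod1 (-1.60), Cry2 (-1.59), Ptgis (-1.42) and Fzd2 (-1.40). Taking the probe set with the largest variance in place of the mean did so for the rises of Il1rap (1.05), Slc7a11 (4.45), Alox5ap (2.49), Slc2a1 (1.46) and Socs3 (1.99). Without non-ligated arrays 3 and 4 the changes of Akap12 (-0.62), Lix1 (-0.93), Stab1 (0.36), Kcnip4 (-0.52) and Stk32a (-1.04) shrank as much and did not pass, and those of Pdgfb (0.54) and Epb41l4a (-0.86) shrank and of Col4a5 (-0.86) grew but passed. Without ligated replicate 3 C7 was at -0.79 and passed. The sign turned for 3 named genes that did not pass: Dbh (0.95) and Enpp3 (0.034) without non-ligated arrays 3 and 4, and Rap2a, whose change ran from -0.039 to 0.051 with any 1 array left out and was below 0 without non-ligated replicate 1 or 4 or ligated replicate 6. The cause of these changes was not tested. No alternative gave a gene whose response differed between the genotypes past the threshold. With 3 and 4 arrays a group, changes of 0.5 on the log2 scale may be missed, in a share that the simulation does not give. Levels relative to background cannot be read from median-centred values.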

Other observations

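Several gene groups moved in the Has3-deficient ligated arteries beside those described above. Of 17 immediate early genes, which cells switch on within minutes of a signal, 9 rose and 0 fell, with a median of 0.75. Egr2, a zinc finger factor, rose by 2.17 ± 0.15, Fos by 1.76 ± 0.27, Ier3 by 1.44 ± 0.26 and Junb by 1.32 ± 0.17. Of 15 genes of the interferon response 9 rose, with a median of 0.98: the antiviral sensors Oas2 and Oasl2 rose by 2.10 ± 0.19 and 1.52 ± 0.27, and Irf7, which amplifies the response, by 1.64 ± 0.21. Of 15 genes of hypoxia and glycolysis 4 rose, the lactate exporter Slc16a3 by 2.21 ± 0.27, the oxygen sensor Egln3 by 1.62 ± 0.28, the glucose transporter Slc2a1 by 0.91 ± 0.11 and Ldha by 0.64 ± 0.14. Pdpn, a mucin of lymphatic endothelium that activated fibroblasts and macrophages also carry, rose by 2.49 ± 0.12, and it was the 1 of 6 lymphatic markers to pass.

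Of 13 clock genes 3 passed as lower (1 without ligated array 6) and 0 as higher, with a median of -0.72. Cry2, a repressor of the clock, fell by 0.96 on the log2 scale (standard error 0.20). The hour at which each artery was taken is not given in the labels, so time of day and ligation cannot be told apart for these genes. No member passed among 18 genes of the respiratory chain, and 1 of 11 genes of cholesterol synthesis did, Srebf2 (-0.52 ± 0.12), against 18.3% of all genes. The cholesterol mean was highest in non-ligated array 3, at 1.29. Among other tissues near the carotid, 0 of 10 epithelial, 1 of 7 thyroid and 1 of 14 fat genes fell, against 8.08% of all genes. The fat gene was Plin4 (-1.06 ± 0.24).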
